A study of Mus musculus with 25 samples.

Results

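The oral compartment is the lower side of the palate, facing the tongue and mouth, and it was captured in an anterior and a posterior region of the mouse palate at E14.5, around the time when the palatal shelves meet at the midline. The comparison described here set the 3 anterior oral libraries against the 3 posterior oral libraries, which are 6 of the 25 libraries of the study. A gene was tested where at least 3 of these 6 libraries held at least 5 RPKM (read number scaled to transcript length and library size), and 10587 of the 37406 genes in the table passed. All 6 libraries came from wild type CD1 embryos of the same stage, with no transgene or treatment, and differ by label only in the position of the tissue and the replicate number. Tissue was cut from sections by laser capture, and the total RNA was amplified before sequencing. The other 19 libraries hold the nasal, medial and lateral compartments of both regions. The medial and lateral cuts also run down to the oral face, so their tissue overlaps in kind with the oral cut, while the nasal cut does not. The labels do not say whether the replicates are separate embryos, so p-values measure the spread between these samples.

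The palatal shelves are outgrowths of neural crest mesenchyme covered by epithelium, and the anterior part becomes the bony hard palate while the posterior part becomes the muscular soft palate. Position along this axis is marked by transcription factors that the mesenchyme expresses in one region and not in the other, among them the homeobox genes Msx1 and Shox2 in front and the homeobox genes Barx1 and Meox2 and the T-box gene Tbx22 behind. The oral side of the shelf is where the ridges of the palate form, and where Sonic hedgehog from the epithelium and fibroblast growth factors from the mesenchyme are known to signal.

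The oral libraries were not equal in quality. Their depth, worked out from the steps between low RPKM values, was about 1640000, 3490000 and 6560000 reads for anterior oral replicates 1, 2 and 3 and 6250000, 3430000 and 3690000 reads for posterior oral replicates 1, 2 and 3, and these span the range of the whole series. Counting error for a transcript of 2000 bases at 5 RPKM was then between 12.4% and 24.7%. These read totals are implied by the RPKM values and are not the reads sequenced, for which the study states a far higher average. Their absolute scale rests on 210 of 1258 genes compared by listed length. Anterior oral replicate 1 stood apart, with a median log2(RPKM + 0.1) of 3.72 against 4.02 to 4.11 in the others and with 71 tested genes listed at 0 against 2 to 7. The names of the alignments place the 6 libraries in 4 sequencing runs, and only 1 run held both regions, with anterior oral replicate 3 and posterior oral replicate 1. The alignment names of that pair also carry the words Tgfbr2_WT, while the labels give CD1 and wild type. Differences are given below as log2 posterior minus anterior with the standard error, and the difference within that pair is given as a value with no test.

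Most genes lay near the line of equal expression in the 2 oral regions, and the genes that left it were few and far from it. Of the 10587 genes, 19 passed an adjusted p of 0.05 (0.179% of those tested), 10 of them higher in the anterior oral libraries (0.0945%) and 9 higher in the posterior ones (0.085%). The anterior set was Alx1, Gkn3, Hpse2, 9130206I24Rik, Pax3, Hey2, Gja5, Hecw1, Eya1 and Atp8a1, and the posterior set included Pcp4, Susd5, Meox2, Tbx22, Lingo2, Lrrc3b, Masp1 and Pcdh10. Before adjustment 378 genes (3.57%) had a P under 0.05. For all 19 the anterior and posterior values did not overlap. This held for 8.26% of all genes tested (5.39% with the posterior values higher and 2.87% with the anterior values higher). Most of the 19 were under 5 RPKM in every library of their lower group. Such genes pass the expression minimum only through the higher group, so their lack of overlap follows from the selection. All 19 also differed by more than 2-fold in the same direction within the pair from the shared run. In that pair 4.64% of the tested genes differed by more than 2-fold in either direction. Both libraries of the pair were in the fit that called these genes, so this agreement is not a separate check. At the looser thresholds that the study uses, an unadjusted P under 0.05 with a fold change over 2, 240 genes passed (2.27%), of which 139 were higher posteriorly (1.31%) and 101 anteriorly (0.954%). The median difference over all tested genes was 0.12 rather than 0. With each library centred on its median, 112 of 248 such genes were higher posteriorly, and with quantile normalization 115 of 266, in place of 139 of 240. Of the 240 genes, 174 also differed by more than 2-fold in the same direction within the shared run, whose libraries were part of that selection too.

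The count of 19 depended on which libraries were in the fit. Without anterior oral replicate 1 it rose to 37, and these included all 19. Without anterior oral replicate 2 it fell to 3, without anterior oral replicate 3 to 16, without posterior oral replicate 2 to 1 and without posterior oral replicate 3 to 5. Without posterior oral replicate 1 no gene passed by limma, although 391 had an unadjusted P under 0.05. In every one of these fits each of the 19 genes kept its direction.

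**Figure D1:**
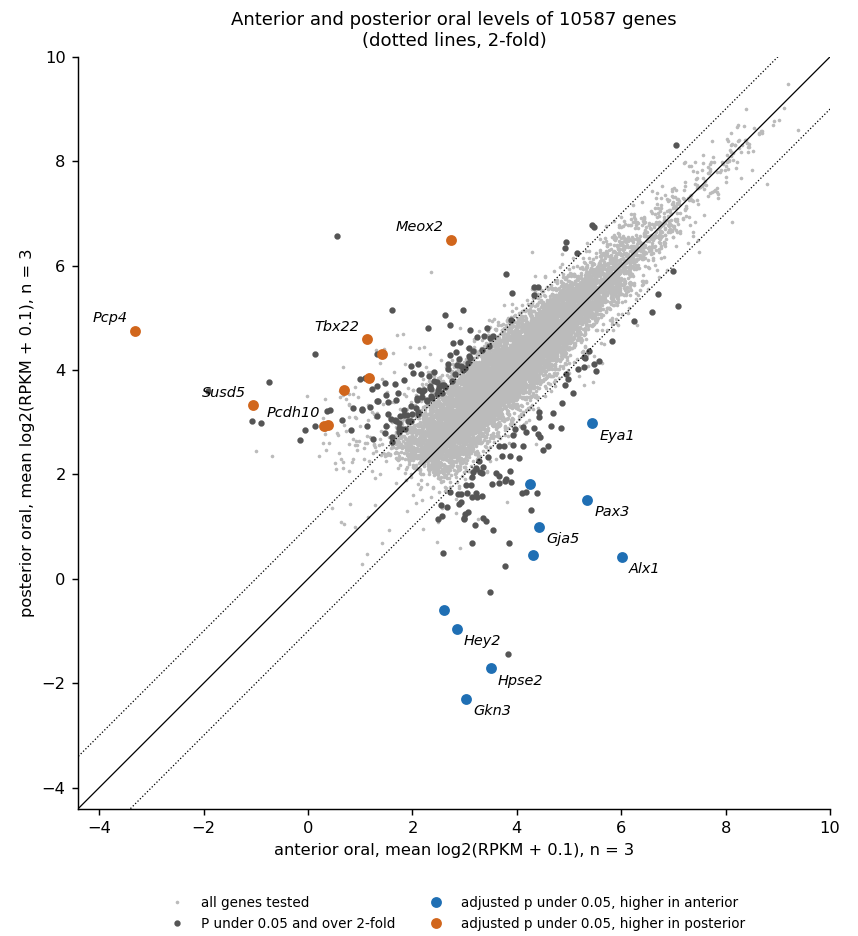
Mean log2(RPKM + 0.1) of the 3 posterior oral libraries (vertical axis) against that of the 3 anterior oral libraries (horizontal axis) for the 10587 genes tested, with 2-fold marked by dotted lines. Blue points are the 10 genes called higher anteriorly and orange points the 9 called higher posteriorly, dark grey points pass only the study's thresholds, and Pcp4 sits at the left edge because it was listed at 0 in all 3 anterior libraries.

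Alx1, Pax3 and Eya1, regulators of transcription in craniofacial mesenchyme, were among the 10 genes higher in the anterior oral palate. Alx1, an aristaless-like homeobox gene (chromosome 10, 102470481 to 102491411 in mm9), stood at 90.9, 59.0 and 50.2 RPKM in the anterior libraries and at 0.698, 0.818 and 3.21 RPKM in the posterior ones. Its lowest anterior value was far above its highest posterior value, and the ratio of the means was 42.4 (log2 difference -5.59 ± 0.56, adjusted p = 0.0196). Pax3, a paired box factor of neural crest and muscle progenitors (chromosome 1, 78097842 to 78193711), read 50.8, 33.3 and 39.3 RPKM in front and 3.00, 2.26 and 3.12 RPKM behind. The posterior libraries were thus low but not silent for Pax3, with a log2 difference of -3.82 ± 0.29 (adjusted p = 0.00871). Eya1, a phosphatase and coactivator that partners the sine oculis family of factors, was high in all 3 anterior libraries at 40.3, 39.9 and 51.0 RPKM and fell to 7.90, 6.40 and 9.39 RPKM posteriorly (log2 difference -2.46 ± 0.28, adjusted p = 0.0298).

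Msx1 and Shox2, the best known anterior palate factors, differed in how closely the replicates held together. Msx1, a homeobox repressor, had 18.7, 15.0 and 10.2 RPKM in the anterior libraries and 0, 0.342 and 1.02 RPKM in the posterior ones. The groups were well separated, but the posterior values were so low and unequal on the log scale that its adjusted p was 0.0859 (log2 difference -5.28 ± 0.80). The antisense gene Msx1as lies within the Msx1 locus on chromosome 5, and since the library kit does not keep strand its reads cannot be told apart from those of Msx1. Shox2, a short stature homeobox gene, read 140.4, 143 and 127 RPKM in the anterior libraries. It was still present at 21.2, 40.9 and 59.6 RPKM in the posterior oral libraries, and its log2 difference of -1.87 ± 0.40 gave an adjusted p of 0.262. In the medial libraries the Shox2 difference was -5.76 and in the lateral ones -4.10, against -2.93 in the nasal ones. The oral difference was the smallest of the 4 compartments, with a contrast against the mean of the other 3 of 2.39 ± 1.18 (adjusted p = 0.892). Tbx15, a T-box gene, had 10.7, 6.999 and 6.32 RPKM in front and 2.48, 1.31 and 2.85 RPKM behind, with an adjusted p of 0.236.

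Among the other anterior genes were enzymes and secreted proteins. Hpse2, a heparanase relative that binds heparan sulphate without cutting it (chromosome 19, 42863085 to 43462801), read 7.46, 11.4 and 16.6 RPKM anteriorly and 0.147, 0.137 and 0.382 RPKM posteriorly. All 3 posterior values were under 1 RPKM, and the log2 difference was -5.22 ± 0.42 (adjusted p = 0.00871). Gkn3, which encodes a secreted protein of the gastrokine family, had 6.17, 7.29 and 11.5 RPKM in front and 0.0807, 0.367 and 0 RPKM behind (log2 difference -5.32 ± 0.56, adjusted p = 0.0218). Atp8a1, a flippase that moves phospholipids across the membrane, and Hecw1, a ubiquitin ligase, were lower posteriorly by smaller amounts, with log2 differences of -2.43 ± 0.30 (adjusted p = 0.0337) and -3.21 ± 0.41 (adjusted p = 0.0392). The noncoding gene 9130206I24Rik had 22.01, 13.9 and 25.2 RPKM in front against 0.776, 0.980 and 2.59 RPKM behind.

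Hey2 and Gja5 are also genes of arteries. Gja5 encodes a connexin of arterial endothelium, and it read 11.6, 27.2 and 30.6 RPKM in the anterior oral libraries and 1.56, 2.21 and 1.97 RPKM in the posterior ones (log2 difference -3.42 ± 0.41, adjusted p = 0.0337). Hey2, a bHLH repressor downstream of Notch, read 12.7, 5.32 and 5.26 RPKM in front and 0.332, 0.646 and 0.321 RPKM behind (log2 difference -3.81 ± 0.43, adjusted p = 0.0298). Endothelial markers as a whole did not separate the regions. Their summed level over 16 markers lay between 225 and 403 RPKM in front and between 254 and 347 RPKM behind, and Cdh5, the cadherin of all endothelium, differed by 0.02 ± 0.34. Gja4, also on that list, differed by -0.59 and overlapped between the groups. Sox17, under the expression minimum, read 10.4, 3.21 and 3.93 RPKM in front and 0.612, 2.48 and 1.36 RPKM behind. In bulk tissue fewer cells of a type and less RNA per cell cannot be told apart.

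Meox2 and Tbx22, transcription factors of the posterior palate, were among the 9 genes higher behind. Meox2, a mesenchyme homeobox gene (chromosome 12, 37835133 to 37906115), stood at 78.8, 116 and 80.3 RPKM in the posterior oral libraries and at 9.07, 6.35 and 4.93 RPKM in the anterior ones. It was therefore abundant behind and low but present in front, and the ratio of the means was 13.5 (log2 difference 3.76 ± 0.33, adjusted p = 0.0129). Tbx22, the T-box gene mutated in X-linked cleft palate (chromosome X, 104863303 to 104884319), read 24.7, 25.1 and 22.2 RPKM behind and 2.91, 2.23 and 1.40 RPKM in front (log2 difference 3.46 ± 0.33, adjusted p = 0.0170). Its posterior replicates were nearly equal, with an SD of 1.56 RPKM around a mean of 24.02.

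Barx1 and Sim2 were as strongly posterior in level but did not pass the adjusted p with all 6 libraries. Barx1, a homeobox gene, had 91.3, 122.7 and 76.0 RPKM in the posterior libraries and 0, 3.58 and 8.41 RPKM in the anterior ones. The value of 0 came from anterior oral replicate 1, and the adjusted p was 0.401 with that library and 0.00973 without it, where the log2 difference was 4.08. Sim2, a bHLH-PAS factor, read 39.6, 37.2 and 29.9 RPKM behind and 1.4998, 2.40 and 6.86 RPKM in front, with adjusted p-values of 0.0766 with all 6 libraries and 0.0348 without anterior oral replicate 1. Gsc, the homeobox gene goosecoid, was at 12.7, 12.7 and 15.7 RPKM behind and at 0, 2.69 and 0.650 RPKM in front (adjusted p = 0.335, and 0.0579 without that library). Leaving that library out raised the number of called genes from 19 to 37, so a lower adjusted p without it is not particular to these genes.

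Other posterior genes encode proteins of the cell, its surface and the extracellular space. Pcp4, a small protein that binds calmodulin (chromosome 16, 96689213 to 96747400), was listed at 0 in all 3 anterior oral libraries and read 45.8, 10.5 and 40.2 RPKM in the posterior ones (adjusted p = 0.00794). It was the only tested gene listed at 0 throughout either group, so no fold is given. Susd5, a membrane protein with a sushi domain, read 15.4, 9.02 and 7.07 RPKM behind and under 1 RPKM in each anterior library (log2 difference 4.38 ± 0.45, adjusted p = 0.0196). Masp1, a serine protease of the lectin pathway of complement, was at 6.44, 8.78 and 7.55 RPKM behind and at 1.02, 1.59 and 0.903 RPKM in front (log2 difference 2.63 ± 0.31, adjusted p = 0.0331).

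Lingo2 and Lrrc3b, which encode leucine-rich repeat membrane proteins, and Pcdh10, a protocadherin, were the adhesion genes of the posterior set. Lingo2 had 18.9, 11.7 and 8.26 RPKM behind and 1.44, 1.33 and 1.79 RPKM in front (log2 difference 2.94 ± 0.36, adjusted p = 0.0337). Lrrc3b had 22.8, 12.7 and 10.2 RPKM behind and 2.32, 2.19 and 1.91 RPKM in front, and Pcdh10 had 6.39, 9.78 and 6.94 RPKM behind and 1.03, 0.929 and 1.78 RPKM in front, with adjusted p-values of 0.0465 and 0.0491. The anterior values of these genes were all under 5 RPKM, so the genes passed the expression minimum only through the posterior libraries. Their lack of overlap follows from that selection.

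**Figure D2:**
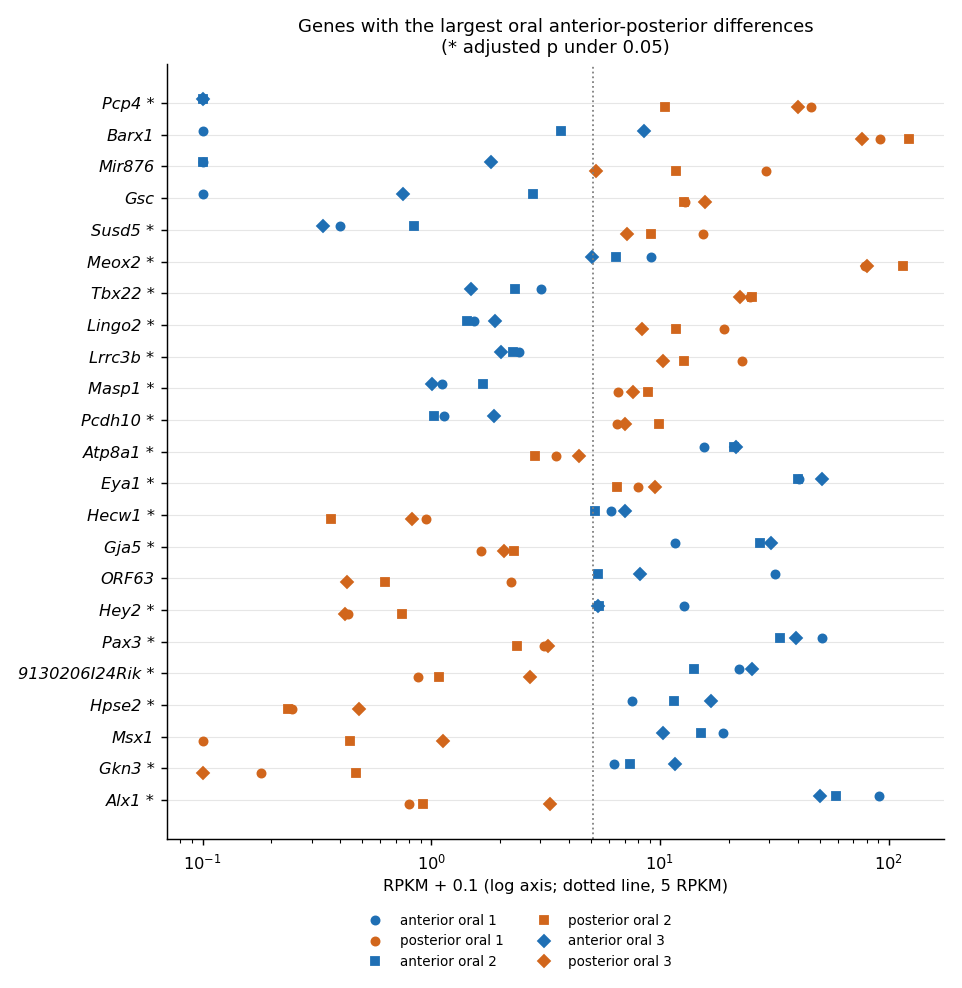
RPKM + 0.1 on a log axis in each of the 6 oral libraries for 23 genes chosen by the size of their difference, anterior libraries in blue and posterior ones in orange, with a marker shape for each replicate number and stars on the 18 of them past an adjusted p of 0.05. Only genes whose groups do not overlap were eligible, so the separation of the groups follows from the choice. Values listed at 0, such as all 3 anterior values of Pcp4, lie at 0.1.

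The table holds a microRNA gene inside the posterior gene Lingo2. Mir876 lies within the Lingo2 locus (chromosome 4, 36592406 to 36592486 in mm9), and it read 28.9, 11.6 and 5.16 RPKM in the posterior oral libraries and 0, 0 and 1.73 RPKM in the anterior ones. Its order among the posterior replicates was that of Lingo2, and its adjusted p was 0.25. The hairpin is 81 bases long, so at the depth of these libraries its lower values rest on few reads. Neither that order nor a value of 0 can therefore be relied on. The reads of 50 bases are longer than the mature microRNA and total RNA was amplified, so this value counts longer transcripts over the hairpin and not the mature forms. The mature sequences from RefSeq (GRCm38.p6), of 22 bases each, are given here to identify the locus, with the seed, bases 2 to 8, in capitals.
mmu-miR-876-5p: uGGAUUUCucugugaaucacua
mmu-miR-876-3p: uAGUGGUUuacaaaguaauuca
A second microRNA gene in the same host, Mir873, was looked up after these values were seen. It stood at 10.7, 6.51 and 0.705 RPKM behind and at 0, 0.0745 and 0 RPKM in front, and it was under the expression minimum. Its locus is short too, and the same limit holds for its values.

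Promoter windows of 300 bases, from 250 before to 50 after the annotated start, were in the RefSeq table for 12 of the 19 genes. They are shown for Gkn3 and Lingo2, the only called genes with TAATTA in a window, and for Hpse2 and Meox2, which had the smallest adjusted p of their direction among genes with a window apart from Pcp4. TAATTA is the core that many homeobox proteins bind, it reads the same on both strands, and it is in capitals below. It occurs in 1738 of the 32851 windows in the table, which is 5.29%. In Gkn3 it starts 46 bases before the annotated start (chr6:87388886-87389185, minus strand, GRCm38.p6).
Gkn3: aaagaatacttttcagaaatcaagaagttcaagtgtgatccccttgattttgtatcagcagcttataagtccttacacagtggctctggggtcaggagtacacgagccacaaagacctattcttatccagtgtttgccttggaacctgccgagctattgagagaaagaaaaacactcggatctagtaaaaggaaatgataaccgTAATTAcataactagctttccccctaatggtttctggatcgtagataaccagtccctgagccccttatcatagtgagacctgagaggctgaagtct
In the second of the Lingo2 windows it starts 231 bases before the start (chr4:35845155-35845454, minus strand, GRCm38.p6).
Lingo2: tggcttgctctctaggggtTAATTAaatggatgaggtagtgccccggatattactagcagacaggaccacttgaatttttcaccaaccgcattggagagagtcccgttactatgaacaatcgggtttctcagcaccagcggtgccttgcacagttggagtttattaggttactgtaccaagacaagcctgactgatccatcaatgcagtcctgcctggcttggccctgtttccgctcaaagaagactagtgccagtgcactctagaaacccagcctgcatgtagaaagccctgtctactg
The windows of Hpse2 (chr19:43388306-43388605, minus strand) and Meox2 (chr12:37108290-37108589, plus strand) hold no TAATTA and are entirely in lower case.
Hpse2: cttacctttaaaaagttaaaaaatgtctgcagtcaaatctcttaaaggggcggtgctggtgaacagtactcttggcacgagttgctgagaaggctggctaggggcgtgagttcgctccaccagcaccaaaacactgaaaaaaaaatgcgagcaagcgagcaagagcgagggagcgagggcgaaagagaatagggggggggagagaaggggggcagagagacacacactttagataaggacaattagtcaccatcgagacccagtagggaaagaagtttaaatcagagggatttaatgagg
Meox2: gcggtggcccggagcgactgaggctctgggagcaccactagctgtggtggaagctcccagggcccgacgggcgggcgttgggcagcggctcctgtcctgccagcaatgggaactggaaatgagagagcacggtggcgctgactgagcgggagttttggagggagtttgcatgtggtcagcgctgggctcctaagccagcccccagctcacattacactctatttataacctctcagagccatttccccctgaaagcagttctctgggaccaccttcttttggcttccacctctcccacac
A match or its absence is a description of these windows.

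The transcription factors that the study names for its pooled comparison of both regions separated the oral libraries well. Of 15 such genes 14 were tested, and 13 of the 14 did not overlap between the groups, against 8.26% of all genes. Of the 14, 5 passed the adjusted p, with Meox2 and Tbx22 higher posteriorly and Alx1, Pax3 and Eya1 higher anteriorly, and by the study's thresholds 6 were higher on each side. The study chose this list on data that include these 6 libraries, so the counts are not independent evidence of direction. Eya4, a relative of Eya1, ran the opposite way to it, at 39.0, 20.6 and 27.1 RPKM behind and 2.74, 5.57 and 7.25 RPKM in front (adjusted p = 0.136). Dlx1, a distal-less homeobox gene, had 17.8, 11.8 and 13.01 RPKM behind and 3.14, 5.31 and 2.51 RPKM in front (adjusted p = 0.163). The study's growth factors, chosen in the same way, gave 0 of 8 past the adjusted p by limma and 4 past its own thresholds, with Gdf10, Clec11a and Pdgfc higher posteriorly and Wnt5a anteriorly. Pdgfc, a ligand of PDGF receptors, was at 12.7, 13.1 and 10.8 RPKM behind and 3.72, 5.61 and 4.62 RPKM in front (adjusted p = 0.222). Heyl and Sall3 passed neither threshold, with log2 differences of -0.98 ± 0.41 and -0.86 ± 0.75, and Gata2 was under the expression minimum in the oral libraries.

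Of 51 other transcription factors of palate mesenchyme 32 were tested, 0 passed the adjusted p by limma and 6 passed the study's thresholds, against 2.27% of all tested genes. All 6 were higher posteriorly (Dlx5, Foxd1, Gsc, Mkx, Npas3 and Six2). Npas3, a bHLH-PAS factor, was at 14.7, 15.8 and 14.8 RPKM behind and 4.90, 5.93 and 2.84 RPKM in front, and Mkx, a homeobox factor of tendon, at 30.2, 23.2 and 28.1 RPKM behind and 6.29, 12.7 and 7.73 RPKM in front. The widely expressed factors Prrx1, Osr2 and Twist1 overlapped between the groups, with log2 differences of -0.45, -0.10 and 0.03. Osr1, an odd-skipped zinc finger gene, had 78.7, 98.2 and 96.7 RPKM in front and 44.0, 55.3 and 41.5 RPKM behind, without overlap but under 2-fold (log2 difference -0.96, adjusted p = 0.601).

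Wnt ligands and secreted Wnt modifiers passed the study's thresholds in both directions, where 1.31% of all tested genes passed with higher posterior and 0.954% with higher anterior levels. Wnt5a, a noncanonical Wnt ligand, was at 41.4, 75.4 and 58.7 RPKM in the anterior libraries and 17.2, 27.8 and 26.5 RPKM in the posterior ones (log2 difference -1.28 ± 0.34, adjusted p = 0.524). Wnt2, a canonical ligand, followed at 8.12, 11.2 and 8.45 RPKM in front and 2.87, 5.65 and 4.49 RPKM behind, so that 2 of the 3 Wnt ligands tested passed the study's thresholds. Among 9 secreted Wnt inhibitors and R-spondins, Dkk2, Rspo1 and Wif1 were higher anteriorly and Rspo3 and Sostdc1 posteriorly by those thresholds. The R-spondins, which raise the response to Wnt, thus ran opposite ways: Rspo1 read 97.9, 83.4 and 137 RPKM in front and 36.7, 55.3 and 40.9 RPKM behind, and Rspo3 read 4.89, 7.65 and 8.09 RPKM in front and 24.96, 18.7 and 25.6 RPKM behind. Wif1, which binds and blocks Wnt ligands, was at 33.7, 21.4 and 22.0002 RPKM in front and 5.29, 8.62 and 9.36 RPKM behind (adjusted p = 0.219). None of 15 Wnt receptors and targets passed either threshold, and the target gene Axin2 differed by 0.31 (unadjusted P = 0.353).

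Among BMP genes, Smoc2, a secreted modulator, passed the study's thresholds at 7.89, 9.77 and 11.5 RPKM behind and 4.79, 5.12 and 2.76 RPKM in front. Grem1, a secreted antagonist, read 12.3, 10.8 and 12.62 RPKM behind and 0.372, 4.72 and 10.2 RPKM in front, and with that anterior spread its unadjusted P was 0.0752. Among 7 ligands Gdf10 alone passed the study's thresholds, at 12.7, 9.52 and 9.68 RPKM behind and 2.92, 4.11 and 1.16 RPKM in front. Bmp4 and Bmp2 overlapped between the groups, with differences of 0.35 and -0.13. Smad9 was the only one of 7 receptor and response genes past those thresholds.

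None of 10 Hedgehog pathway genes, 8 FGF ligands and receptors, 10 genes of the FGF to ERK response and 11 retinoic acid genes passed the study's thresholds, and with 2.27% of all tested genes past them a count of 0 in lists of this size is near the background. Ptch1, receptor and target of Hedgehog, was at 64.7, 102 and 115 RPKM in front and 58.0, 82.6 and 68.8 RPKM behind, with overlapping groups. Fgf10, a ligand of the mesenchyme, was at 15.0, 8.03 and 5.74 RPKM in front and 7.401, 7.77 and 10.03 RPKM behind. Shh itself, an epithelial gene, read at most 0.686 RPKM in the anterior oral libraries and 0 in each posterior one, under the expression minimum. Fgf18 did not overlap between the groups but differed by only -0.51 ± 0.28 (adjusted p = 0.858), against -2.49 in the nasal and -3.20 in the medial libraries. Aldh1a2, which makes retinoic acid, was at 13.5, 13.05 and 20.3 RPKM in front and 7.44, 6.42 and 9.74 RPKM behind, under 2-fold (log2 difference -0.97, adjusted p = 0.853).

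Of the remaining signalling lists, Notch held Hey2 and its relative Hey1 as the 2 of 11 genes past the study's thresholds, both higher anteriorly, against 0.954% of all tested genes in that direction and 2.27% in either direction for this and the following lists. Hey1 read 12.2, 17.0 and 20.9 RPKM in front and 5.98, 3.04 and 6.38 RPKM behind (adjusted p = 0.285). Among 17 PDGF, EGF and IGF genes the ligands Pdgfc and Pdgfd were higher posteriorly and Igfbp7 anteriorly. Pdgfd stood at 7.197, 6.43 and 9.11 RPKM behind and 0.340, 1.35 and 1.95 RPKM in front. Its adjusted p was 0.0339 without anterior oral replicate 1, against 0.219 with it. In the TGF-beta list Tgfbi, a matrix protein induced by TGF-beta, was the only one of 14 past the study's thresholds, at 43.5, 53.7 and 47.5 RPKM behind and 20.7, 21.9 and 20.5 RPKM in front. Inhba, a subunit of activin, overlapped between the groups, with 20.5, 33.2 and 87.2 RPKM in front and 22.6, 5.25 and 18.2 RPKM behind.

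Axon guidance genes were split. Among 28 semaphorin, plexin, neuropilin, Slit, Robo and netrin genes, Slit2 and Nrp1 were higher anteriorly and Plxna2 posteriorly by the study's thresholds. Nrp1, a coreceptor for semaphorins and VEGF, was at 40.2, 47.2 and 46.9 RPKM in front and 16.8, 16.1 and 19.0 RPKM behind (log2 difference -1.36 ± 0.25, adjusted p = 0.176). Slit2, a secreted ligand of Robo receptors, was at 15.4, 24.6 and 27.2 RPKM in front and 6.92, 5.63 and 6.97 RPKM behind, and its adjusted p was 0.0284 without anterior oral replicate 1 against 0.163 with it. Among 16 Eph receptors and ephrins only Epha3 passed the study's thresholds. Its anterior values were 10.8, 48.8 and 55.4 RPKM, and without the first of them the log2 difference went from 1.499 to 0.75.

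Adhesion genes were the list with the most posterior members. Of 23 cadherins and adhesion proteins of the synaptic type, 7 passed the study's thresholds in the posterior direction (Cdh18, Cdh20, Flrt2, Lrrc3b, Lrrtm1, Lrrtm3 and Pcdh10) and 0 in the anterior direction, against 1.31% and 0.954% of all tested genes. Their median difference was 0.41, against 0.12 over all genes. The study names Cdh18, Cdh20, Lrrc3b, Lrrtm1 and Lrrtm3 as higher in posterior oral than in posterior nasal tissue. The list thus holds genes that were picked on these same posterior oral libraries. Its counts and median are therefore not independent evidence of direction. Cdh18, a type II cadherin, read 22.5, 21.9 and 15.4 RPKM behind and 4.14, 0.344 and 0.595 RPKM in front, and its relative Cdh20 read 18.1, 28.5 and 14.9 RPKM behind and 8.69, 2.06 and 0.738 RPKM in front. In both genes anterior oral replicate 1 was the highest of the anterior values, and without it the adjusted p-values were 0.00182 and 0.0179, against 0.176 and 0.499 with it. Lrrtm3, a leucine-rich repeat protein of synapses, stood at 15.2, 12.9 and 9.66 RPKM behind and 1.60, 1.71 and 4.14 RPKM in front. Flrt2, an abundant adhesion protein of the same repeat family, stood at 72.8, 91.0 and 78.2 RPKM behind and 34.2, 37.5 and 21.7 RPKM in front (adjusted p = 0.281).

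**Figure D3:**
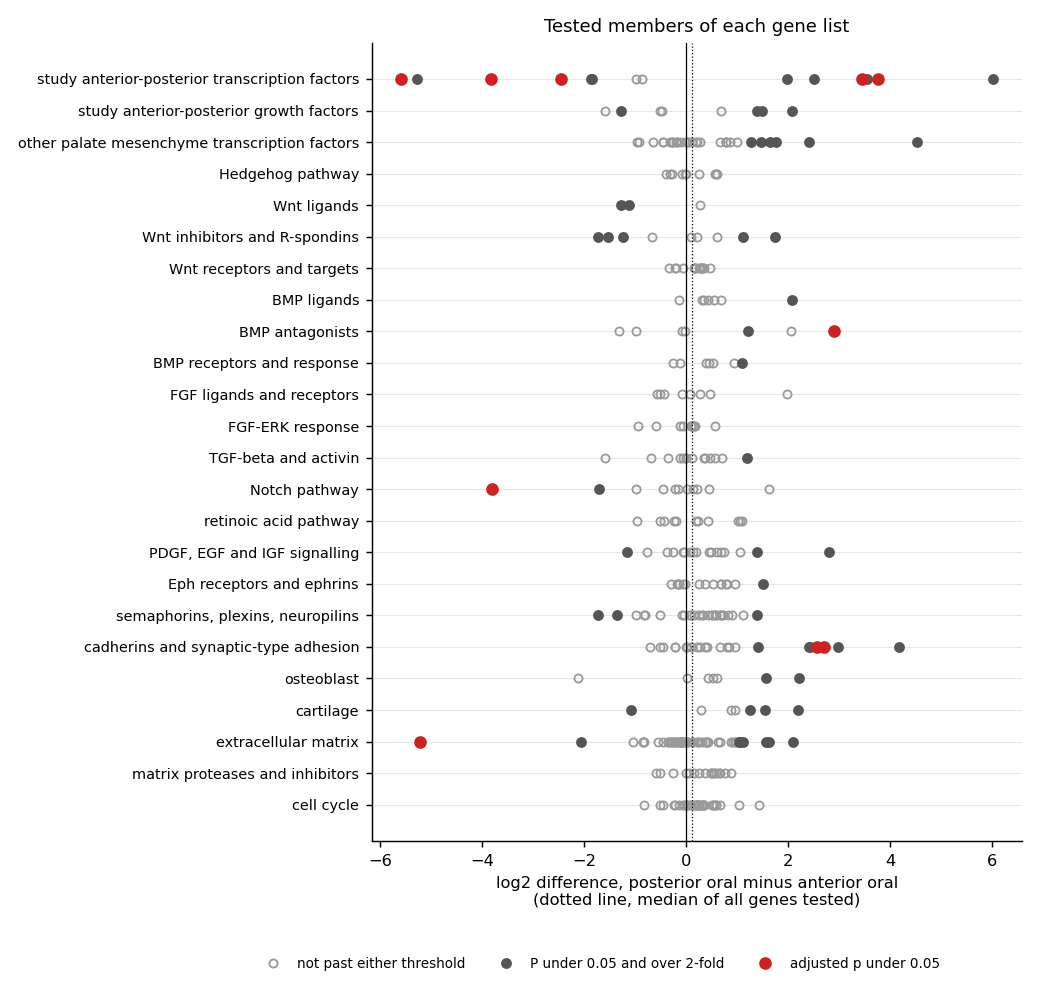
Log2 difference between posterior and anterior oral libraries for each tested member of 24 gene lists, with the median of all tested genes as a dotted line at 0.12. Red points pass an adjusted p of 0.05 and dark points pass the study's thresholds, which the adhesion list reaches only on the posterior side and the Hedgehog, Wnt receptor, FGF, retinoic acid, protease and cell cycle lists do not reach.

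Skeletal genes past the study's thresholds were mostly higher behind, where 1.31% of all tested genes passed, against 0.954% in front. Runx2, the factor that commits cells to bone, was at 53.2, 42.1 and 39.1 RPKM behind and 18.0, 15.0 and 12.4 RPKM in front (log2 difference 1.56 ± 0.28, adjusted p = 0.164), and Sp7, which acts after it, at 7.25, 11.5 and 9.96 RPKM behind and 0.962, 2.04 and 3.69 RPKM in front. These were 2 of 7 osteoblast genes tested, and Ibsp, a protein of mineralizing matrix, did not follow them, with 14.0, 4.69 and 12.96 RPKM in front and 14.9, 1.00 and 0.555 RPKM behind. Of 7 cartilage genes Col2a1, Col9a3 and Sox9 were higher posteriorly and Hapln1 anteriorly by the study's thresholds. Col2a1, the main collagen of cartilage, was at 43.2, 41.2 and 25.3 RPKM behind and 4.45, 7.67 and 13.3 RPKM in front (adjusted p = 0.222).

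Of 56 matrix genes tested 8 passed the study's thresholds, against 2.27% of all tested genes, and Hpse2 alone passed the adjusted p. The others were Col14a1 on the anterior side and Col25a1, Col8a2, Fndc1, Npnt, Thbs2 and Tnn on the posterior side. Col25a1, a transmembrane collagen, read 17.8, 17.3 and 15.1 RPKM behind and 2.84, 6.22 and 3.15 RPKM in front (log2 difference 2.10 ± 0.35, adjusted p = 0.136). Fndc1, a fibronectin domain protein, read 26.2, 24.99 and 18.5 RPKM behind and 6.94, 8.33 and 7.05 RPKM in front, and Col14a1, a collagen that coats fibrils, read 17.8, 29.2 and 27.2 RPKM in front and 3.46, 6.01 and 8.86 RPKM behind. Among 17 matrix proteases and inhibitors and 34 cell cycle genes 0 passed the study's thresholds.

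Markers of cell types place the captured tissue and show what else moved with position. The 9 mesenchyme markers were all over the minimum and summed to between 892 and 1138 RPKM in front and between 771 and 1088 RPKM behind. Epithelial and periderm markers were low in all libraries and higher in front, with a sum over 23 markers of 73.9 to 157 RPKM against 47.4 to 71.1 RPKM. Epcam, an adhesion protein of epithelia, was among the tested markers past the study's thresholds. It read 6.22, 6.47 and 9.93 RPKM in front and 3.57, 1.98 and 2.50 RPKM behind (adjusted p = 0.328). The keratins Krt5, Krt14 and Krt15 overlapped between the groups, with log2 differences of -0.82, 0.14 and -0.89. The sum of 8 neuronal markers was also higher in front, at 72.7 to 91.6 RPKM against 46.5 to 62.0 RPKM. Gap43, a growth cone protein, made up most of that sum in front, at 54.4 to 69.0 RPKM against 21.7 to 41.3 RPKM behind. The other 2 tested neuronal markers, Tubb3 and Prph, had log2 differences of the opposite sign, 1.83 and 2.10, and overlapped between the groups. Behind, the sums were higher for red cell markers, at 851 to 1197 RPKM against 484 to 611 RPKM, for macrophage markers, at 165 to 216 RPKM against 118 to 153 RPKM, and for markers of osteoblast-lineage and cartilage cells, at 36.4 to 68.6 RPKM against 15.9 to 30.6 RPKM. Among the tested macrophage markers only Cd68 did not overlap between the groups, and Cx3cr1 and Aif1 alone had negative log2 differences, of -0.39 and -0.02. The red cell genes Hba-a1, Hbb-b1 and Hba-x overlapped between the groups. Col2a1 made up most of the osteoblast-lineage and cartilage sum behind, at 25.3 to 43.2 RPKM. Of the other members, Sp7 was also higher behind. Ibsp had a log2 difference of -2.12 and overlapped between the groups, and Acan and Matn1 were under the expression minimum. The sums for skeletal muscle, endothelium, smooth muscle and pericytes and Schwann cells overlapped. The skeletal muscle sum was 80.2 to 96.04 RPKM in front and 55.4 to 93.9 RPKM behind. The muscle factor Myod1 was at most 1.08 RPKM in any oral library. Of the 19 muscle markers in the table, 6 passed the expression minimum. Among these 6, Actc1 read 12.7 to 34.96 RPKM and Mylpf 9.21 to 17.47 RPKM over the oral libraries. Apart from Gja5 no marker passed the adjusted p, and no marker was at 0 in all 6 libraries. The part of these cell types in the differences of single genes was not tested.

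**Figure D4:**
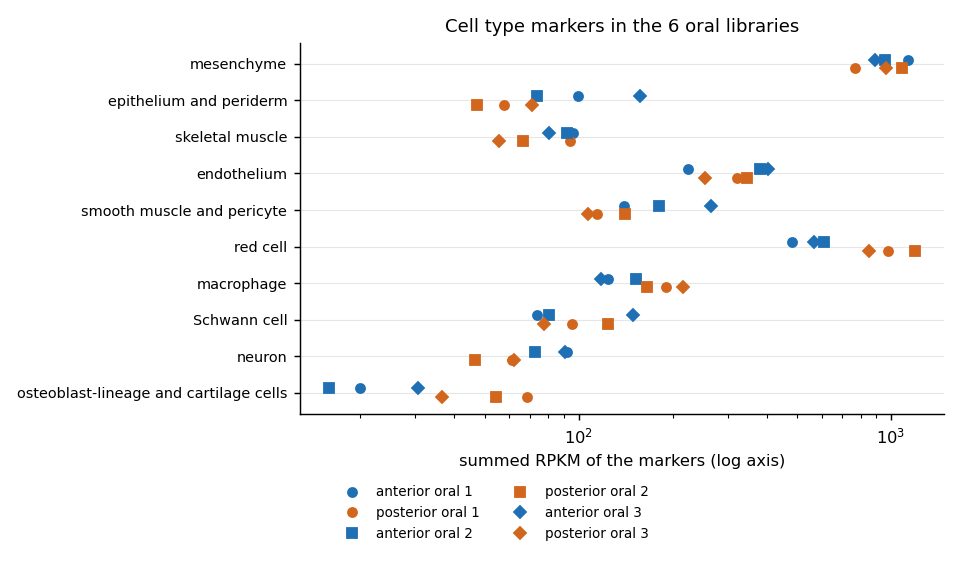
Summed RPKM of each list of cell type markers on a log axis in the 6 oral libraries, anterior in blue and posterior in orange, with a marker shape for each replicate number. The sums of epithelium and neurons lie higher in all 3 anterior libraries, those of red cells, macrophages and osteoblast-lineage and cartilage cells lie higher in all 3 posterior libraries, and the other 5 lists overlap.

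The last question was whether the oral differences also ran through the rest of the palate. The nasal, medial and lateral libraries share no sample with the oral ones. For 15 of the 19 called genes the posterior minus anterior difference had the same sign in all 3 of those compartments. The share of all tested genes with this trait was not worked out, so the count is a description. Signs were counted whatever their size, and Lrrc3b and Masp1 differed by only 0.0048 and 0.13 in nasal tissue. Hpse2 differed by -5.65 in nasal, -6.51 in medial and -6.40 in lateral tissue, close to its oral difference of -5.22, and Alx1 by -4.64, -6.69 and -6.10. Gja5 and Gkn3 departed in the medial tissue, where Gja5 differed by 0.30 and Gkn3 was listed at 0 in all 6 libraries. Pcdh10 departed in the nasal tissue, where it differed by -0.43.

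The difference between the oral and the nasal contrast was tested over 11442 genes, of which 4 passed an adjusted p of 0.05 (0.035%) and 387 an unadjusted P of 0.05 (3.38%). They included Pcdh10, called in the oral comparison too, while Unc5c passed without being called in the oral comparison, and Cxcl13 was under the oral expression minimum. Pcdh10 read 5.29, 3.09, 4.83 and 4.01 RPKM in anterior nasal and 2.40, 3.87 and 3.21 RPKM in posterior nasal tissue, with a contrast of 2.99 ± 0.41 (adjusted p = 0.0385). Unc5c, a netrin receptor, was at 16.05, 15.6 and 17.9 RPKM in anterior oral and 18.9, 23.8 and 18.9 RPKM in posterior oral tissue, a small difference of 0.31 (adjusted p = 0.858) without overlap. In nasal tissue it was at 30.1 to 33.8 RPKM in front and 11.5 to 13.2 RPKM behind, which gave a contrast of 1.69 ± 0.25 (adjusted p = 0.0463). Cxcl13, a chemokine, was at 5.57, 16.7, 15.9 and 15.9 RPKM in anterior nasal tissue, listed at 0 in posterior nasal tissue and at most 1.05 RPKM in any oral library.

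**Figure D5:**
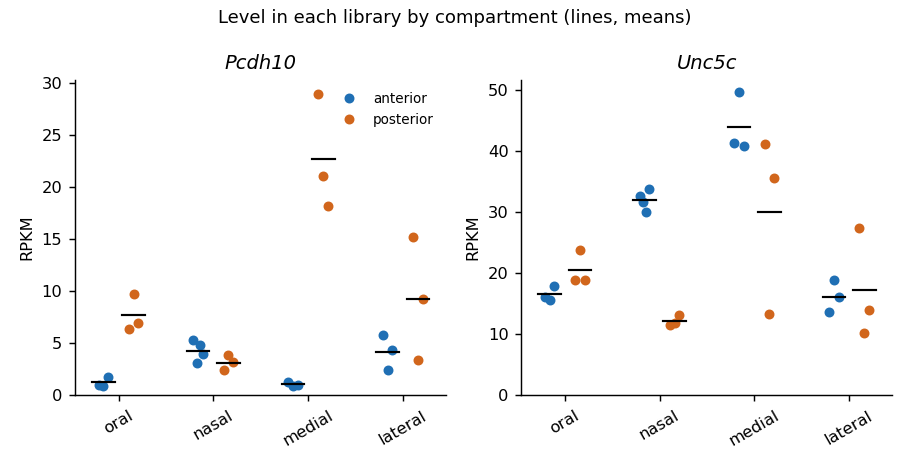
RPKM of Pcdh10 and Unc5c in each library of the 4 compartments, anterior in blue and posterior in orange, with bars at the means. Pcdh10 is higher posteriorly in the oral tissue and not in the nasal tissue, while Unc5c is lower posteriorly in the nasal tissue and slightly higher posteriorly in the oral tissue.

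Set against the mean contrast of the other 3 compartments over 11913 genes, no oral difference passed the adjusted p by limma (0%, lowest adjusted p = 0.109), while the P before adjustment was under 0.05 for 356 genes (2.99%). Pax3 and Gkn3 were among the 356. Pax3 had the lower p of the pair, and its posterior values were 2.26 to 3.12 RPKM in oral tissue but 12.4 to 19.7 RPKM in medial and 10.1 to 13.4 RPKM in nasal tissue, with a contrast of -1.65 ± 0.30 (adjusted p = 0.119). Its posterior lateral values of 4.01 to 5.16 RPKM were near the oral ones.

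At the expression minimum itself, Ankrd24 and Irf1 were the last genes inside, where the value that decided was 5.003 and 5.007 RPKM, and Enpp5 and Poli the first outside, with 4.998 and 4.997 RPKM.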

How the data were processed

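The authors deposited RPKM values per gene, for which single-end reads (50 bases) were filtered for duplicates and multiple alignments and quantified in GeneSpring 12.6.1, so near-identical genes are read low. The submitters' processing notes list TopHat and mm9. Libraries were made with the NuGEN Ovation RNA-Seq V2 kit and Nextera from total RNA. Groups came from the sample labels and sequencing runs from the names of the alignments. Read counts were not used here, and depth was worked out from the RPKM steps.

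Tests used limma 3.58.1 in R 4.3.3 (lmFit, eBayes) on log2(RPKM + 0.1), a scale that understates the change of low genes, over genes reaching 5 RPKM in 3 or more of the compared libraries, with Benjamini-Hochberg adjustment over all genes tested. The oral comparison used the 6 oral libraries, the oral less nasal contrast 13 and the contrast with the other 3 compartments all 25. With 3 libraries against 3, an exact permutation test of a single gene could not pass 0.05 and was not used. Genes were named by size of difference within each direction, among genes without overlap that passed either threshold. Genes were also named by list (up to 3 per list by P) and by the contrasts between compartments. A few list members outside these rules were named after their values were seen. The members and lists were chosen with earlier results of these data known. Symbols on 2 rows of the table were left out of the lists (5 genes). Some genes counted in the totals are not reported here. The scripts were tested on simulated data. Summaries used pandas 2.3.3 and numpy 2.4.6 under Python 3.11.15, and plots matplotlib 3.10.9.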

Additional observations from a re-analysis of the deposited data

Results flagged for a closer look

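A test of the difference between the oral and the nasal contrast passed for genes that included Pcdh10 and Unc5c. Pcdh10 differed by 2.56 in oral and -0.43 in nasal tissue, a contrast of 2.99 that passed an adjusted p of 0.05 in 5 of 21 alternatives and in 2 of 13 fits that left out 1 library (adjusted p from 0.0226 to 0.304). Unc5c differed by 0.31 in oral and -1.38 in nasal tissue, a contrast of 1.69 that passed in 2 of 22 alternatives and in 0 of 13 such fits by limma (adjusted p from 0.0315 to 0.479).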

How the results depend on the processing

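All 19 oral genes kept their direction under every alternative in which they were tested. The count of 19 became 6 with a mean-variance trend, 11 with a minimum of 10 RPKM, 0 with no minimum (934 with an unadjusted P under 0.05), 49 with all 25 samples (16 shared with the 19) and 10 with all 25 samples and run as a term (9 shared), and 0 to 37 without 1 library. With quantile normalization 25 genes passed, and 12 of them were among the 19. The count of 240 by the study's thresholds became 857 with no minimum, 112 with a minimum of 10 RPKM and 189 to 657 without 1 library, the highest without anterior oral replicate 3. The 4 genes of the oral less nasal contrast became 7 with a pseudocount of 1, 1 with 0.01, 0 with quantile normalization (413 with an unadjusted P under 0.05), 1 with a mean-variance trend, 0 with no minimum (791), 10 with all 25 samples and 0 to 5 without 1 library, and without 1 library limma gave 289 to 651 genes with an unadjusted P under 0.05. The contrast with the other 3 compartments had 0 genes, 1 with quantile normalization and 0 to 1 without 1 library.

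The deviations of same-numbered oral libraries from their group means correlated at 0.173, 0.388 and -0.512 across genes. Those of libraries with different numbers correlated at -0.462 to 0.329. Deviations within a group sum to 0, so these values constrain each other and cannot show whether replicate numbers pair the samples. With a replicate block 17 oral genes passed (14 shared with the 19), 407 passed the study's thresholds and 0 passed in the oral less nasal contrast (386 with an unadjusted P under 0.05). The cause of these changes was not tested. In anterior oral replicate 1, the shallowest library, 3 reads on a transcript of 2000 bases equal 0.915 RPKM, so lower values there are not distinguishable from 0.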

Other observations

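Without anterior oral replicate 1, 18 further genes passed the adjusted p, 11 higher behind and 7 in front. Besides genes named above they included Irx5, an Iroquois homeobox gene, at 14.3, 7.93 and 8.02 RPKM behind and 1.91 and 1.97 RPKM in the other two anterior libraries (adjusted p = 0.0414), and Nell2, a secreted protein with EGF domains, at 20.9 and 43.0 RPKM in front and 2.83, 2.75 and 3.50 RPKM behind (adjusted p = 0.0131). Nmbr, the receptor of neuromedin B, was at 16.9 and 17.2 RPKM in front and 3.79, 4.63 and 2.81 RPKM behind (adjusted p = 0.0307). These genes were named after their values were seen.

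Among the 240 genes past the study's thresholds, 12 pairs lay within 100 kb of each other, 10 of them differing in the same direction and 6 overlapping. Overlapping genes can share reads, since the library kit does not keep strand. The share of such pairs among all tested genes was not worked out, so these counts are a description. Kcnj8 and Abcc9, which encode the pore and the regulatory subunit of a potassium channel of pericytes and smooth muscle, lie side by side on chromosome 6 and both were higher in front. Abcc9 read 24.99, 12.9 and 17.7 RPKM in front and 4.12, 2.83 and 2.52 RPKM behind, and Kcnj8 read 14.4, 7.47 and 14.6 RPKM in front and 3.80, 2.93 and 0.496 RPKM behind. The other 6 tested markers of smooth muscle and pericytes overlapped between the groups, with log2 differences of -0.70 for Rgs5, -0.93 for Acta2, -0.96 for Tagln, 0.52 for Cspg4, 0.21 for Notch3 and 0.14 for Pdgfrb. Below the expression minimum, Myh11 read 3.93, 4.14 and 14.8 RPKM in front and 0.688, 0.381 and 0.739 RPKM behind, and Actg2 read 3.93, 11.1 and 23.7 RPKM in front and 0.113, 1.03 and 1.12 RPKM behind, both without overlap. The part of these cell types in the differences was not tested. Tsga13 and Klf14, also neighbours on chromosome 6, were both higher in front, with log2 differences of -2.95 and -1.51.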
